A study of Mus musculus with 4 samples.

Results

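The 8 genes Mpo, Elane, Prtn3, Ctsg, Ms4a3, Nkg7, Cst7 and Hp are genes of the primary granule and of early granulocyte development. They were chosen by name, with earlier results of these data known, so shares of all genes set beside their counts are a description. Every probe set whose single gene symbol in the platform annotation was one of these names was used. That gave 8 probe sets, 1 for each gene, among 34945 probe sets with 1 symbol, which stand for 18193 genes. All 8 were among the 11653 genes whose highest value on the 4 arrays reached 3.29, the median of all values on the log2 scale. That median is called the floor below, and it marks low signal, since the arrays' own detection calls were not used here.

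The study sorted granulocyte monocyte progenitors (GMP) and a population labelled MDP, an abbreviation for progenitors of macrophages and dendritic cells, from untreated mice. Each progenitor was taken from wild-type and from Trib1-/- mice, which makes 4 groups, all of a C57BL6J/129SV mixed background, and each group was measured on 1 Affymetrix array. The labels give neither the age or number of the animals nor the sort gates, and name no tissue-specific deletion. The question asked here is how much of the granule gene programme each progenitor carried, and how it differed between genotypes.

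Primary (azurophil) granules are the first granules that a developing neutrophil makes, at the promyelocyte stage. They carry myeloperoxidase, which makes hypochlorous acid, and a family of serine proteases that are stored as active enzymes and released into the phagosome. Their genes are switched on in GMP under regulators such as C/EBPα, PU.1 and Myb, and are lost as cells mature or turn towards the monocyte and dendritic lineages. Trib1 encodes a pseudokinase that directs C/EBPα to the COP1 ubiquitin ligase.

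The regions before the annotated starts of the 4 classical granule genes are shown because these genes were all higher in GMP on every comparison described below, and because they hold matches to motifs of granule gene regulators. Sequences are from RefSeq, build GRCm38.p6, and 7 of the 8 genes matched the promoter table (Mpo, Elane, Prtn3, Ctsg, Ms4a3, Nkg7 and Cst7). Each runs 5′ to 3′ on the strand of the gene over the 250 bases that end at the base before the start. Capitals mark matches on either strand to AGGAAGT (the ETS motif of PU.1 type), AACGG (a Myb core), TTGCNNAA (a C/EBP palindrome) and TGTGGT (a RUNX core), with no overlap between matches in these 4 windows. Mpo lies at chr11:87793534-87793783, plus strand, Elane at chr10:79886062-79886311, plus strand, Prtn3 at chr10:79879417-79879666, plus strand, and Ctsg at chr14:56102575-56102824, minus strand.
Mpo: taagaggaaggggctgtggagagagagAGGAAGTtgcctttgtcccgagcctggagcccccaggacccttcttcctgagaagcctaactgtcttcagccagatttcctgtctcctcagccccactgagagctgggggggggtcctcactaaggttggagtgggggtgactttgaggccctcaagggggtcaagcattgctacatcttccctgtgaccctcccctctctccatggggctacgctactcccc
Elane: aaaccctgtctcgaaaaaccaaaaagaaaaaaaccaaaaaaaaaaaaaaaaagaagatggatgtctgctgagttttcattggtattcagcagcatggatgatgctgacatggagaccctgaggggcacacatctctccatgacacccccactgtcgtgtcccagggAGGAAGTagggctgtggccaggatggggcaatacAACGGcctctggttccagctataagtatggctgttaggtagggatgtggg
Prtn3: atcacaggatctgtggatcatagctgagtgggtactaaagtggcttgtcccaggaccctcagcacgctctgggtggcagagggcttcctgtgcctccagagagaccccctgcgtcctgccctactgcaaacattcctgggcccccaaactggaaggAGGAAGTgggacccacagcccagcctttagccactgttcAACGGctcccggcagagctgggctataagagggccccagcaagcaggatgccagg
Ctsg: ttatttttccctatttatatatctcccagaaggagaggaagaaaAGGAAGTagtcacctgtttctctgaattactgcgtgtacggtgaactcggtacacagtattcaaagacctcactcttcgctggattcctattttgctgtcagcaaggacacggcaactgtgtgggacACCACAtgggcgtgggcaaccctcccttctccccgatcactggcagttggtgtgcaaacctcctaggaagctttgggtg

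AGGAAGT was present in 5 of the 7 windows (Cst7, Ctsg, Elane, Mpo and Prtn3) and in 7.69% of 32851 windows of the same length over all annotated starts. AACGG was present in 2 of the 7, Elane and Prtn3, against 14.5% of all windows. Elane and Prtn3 lie next to each other on chromosome 10, and in both windows AACGG followed AGGAAGT towards the start. In Elane the first base of AGGAAGT lay 84 bases before the start and that of AACGG 50 bases before it, and in Prtn3 94 and 55 bases. TGTGGT was present in 3 of the 7 (Cst7, Ctsg and Nkg7) against 14%, and TTGCNNAA in 0 of the 7 against 9.56%. The motifs were chosen with the sequences in view, so these shares describe the windows and are no test, and a match is not a site shown to be bound. Only exact matches to these letters were searched, so a window without a match, for C/EBP as for the others, can still hold a site with other letters.

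**Figure D1:**
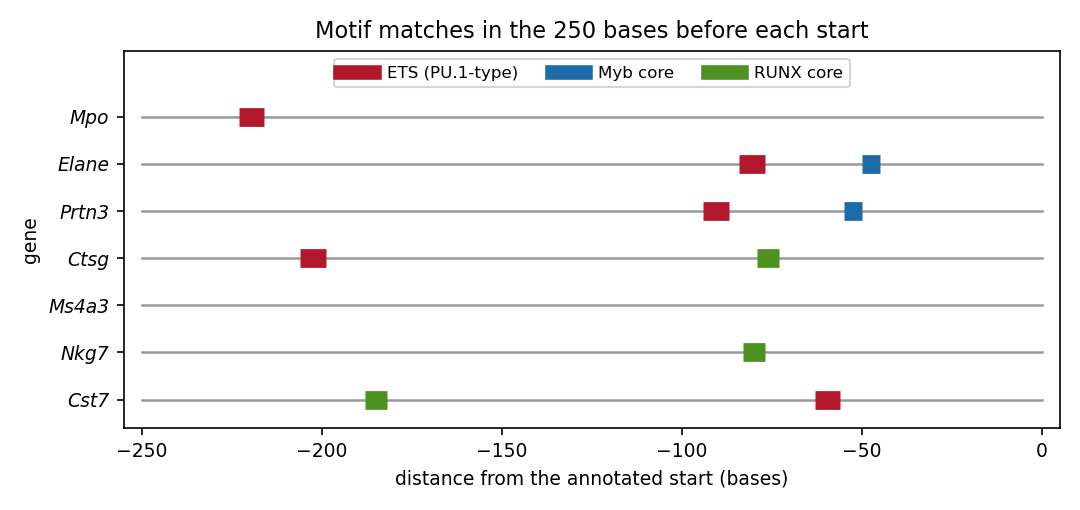
Positions of motif matches (coloured blocks) in the 250 bases before the annotated start of 7 genes, with the distance from the start in bases on the x axis and 1 line per gene. Elane and Prtn3 hold AGGAAGT (red) and AACGG (blue) in the same order, and Ms4a3 holds no match to the motifs searched.

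The medians of the arrays ran from 3.27 to 3.31, which is no check of the samples, since RMA gives every array a like distribution. Trib1 did not check the labels: its 2 probe sets read 4.71 to 5.99, and were 0.34 and 0.15 higher in GMP but 0.41 and 0.43 lower in MDP on the arrays labelled Trib1-/- (-0.41 and -0.43), and which part of the gene was deleted is not stated there. Knockout below means the array so labelled. Of the GMP markers, Cd34, Kit, Fcgr3 and Fcgr2b were all above the floor on both GMP arrays. Cd34 (6.16 and 6.50) and Fcgr2b (4.92 and 4.67) read lower in MDP but stayed above the floor on both MDP arrays. Fcgr3 also read lower there, at 4.74 in wild-type MDP and 2.92, below the floor, in knockout MDP. On the MDP arrays Csf1r (7.82 and 7.81) and Flt3 (4.85 and 5.50) read higher than in GMP, whereas Kit, another marker of this progenitor, lay below the floor (2.43 in wild type and 2.69 in the knockout). Cx3cr1, also an MDP marker, differed little, at 5.34 and 5.06 in GMP and 5.67 and 5.36 in MDP. The wild-type GMP array stood furthest from the MDP arrays, with a correlation over genes of 0.875 with wild-type MDP and 0.883 with knockout MDP, against 0.922 and 0.928 for knockout GMP. With 1 array a group there is no replicate check and no test, and a difference is called here where it reached 1 on the log2 scale, that is 2-fold.

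All 8 genes were lower in MDP than in GMP in both genotypes, and each of them by more than 2-fold. The 2 comparisons have no array in common, and that in the knockout does not use the wild-type GMP array. The median difference of the 8 was -3.21 in wild type and -2.69 in the Trib1-/- arrays, where the median over all 11653 genes was -0.04 and -0.01. Over all genes the share 2-fold lower in MDP was 12.4% in wild type, 4.08% in the knockout and 2.85% in both. At least 4-fold lower were 7 of the 8 in wild type (all but Mpo), against 1.3% of all genes, and 6 of the 8 in the knockout (all but Cst7 and Hp), against 0.481%. Basophil and mast cell markers were lower in MDP too. The 7 with a probe set had a summed linear level of 453.6 and 201.2 in GMP and 77.2 and 62.2 in MDP (wild type first). Of the 6 above the floor on some array, 6 were at least 2-fold lower in MDP in wild type and 4 in the knockout. Hdc, the histidine decarboxylase gene, read -4.06 and -3.01, and Cpa3, a mast cell carboxypeptidase gene, -3.41 and -0.91. On both MDP arrays 2 of the 7 markers, Mcpt8 and Gata2, stayed above the floor, and Tpsb2 was below it on all 4 arrays. Macrophage markers ran the other way in wild type. The 8 summed to 130.8 and 97.1 in GMP and to 452.3 and 95.9 in MDP (wild type first). Of the 7 above the floor on some array, 7 were at least 2-fold higher in MDP in wild type and 1 in the knockout. Of all genes, 4.16% and 2.75% were. The part of these basophil, mast cell and macrophage markers in the differences of the 8 genes was not tested. In bulk samples, fewer cells of a type and less RNA per cell cannot be told apart, so a lower value here can stand for either.

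**Figure D2:**
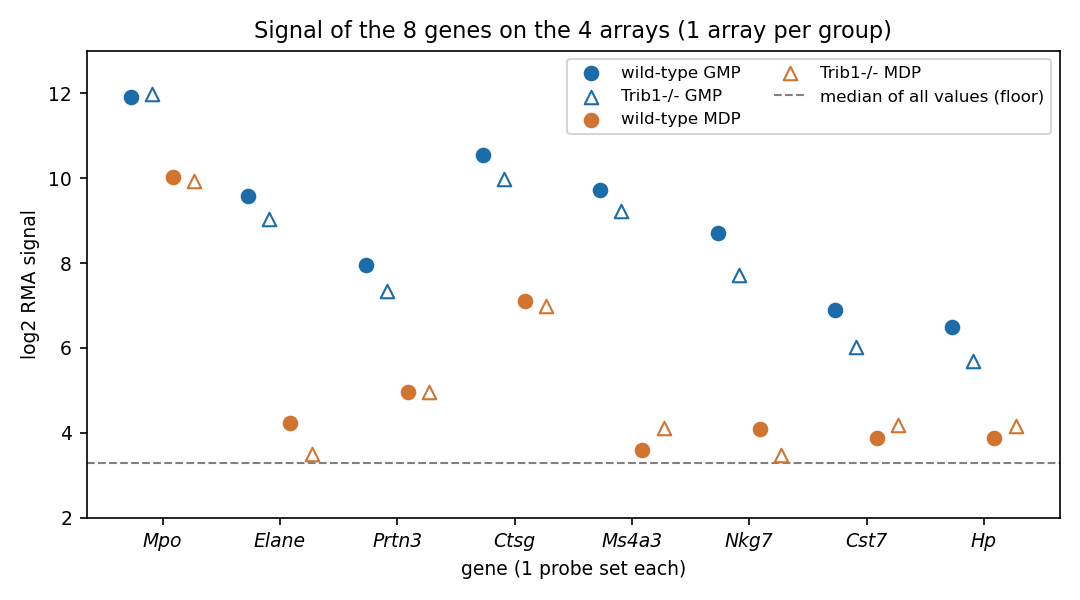
Log2 RMA signal (y axis) of the 8 genes (x axis) on each of the 4 arrays, with filled circles for wild type, open triangles for Trib1-/-, blue for GMP and orange for MDP; each symbol is a single array, so there are no error bars, and the dashed line is the floor of 3.29. For every gene both GMP arrays lay above both MDP arrays, an order whose share over all genes was not counted, and the lowest GMP value was 5.70, for Hp.

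Mpo (probe set 1415960_at) encodes myeloperoxidase, the haem enzyme of the granule. In GMP it read 11.90 in wild type and 11.99 in the knockout, and in MDP 10.04 and 9.93. Both GMP arrays were high and both MDP arrays lower, yet Mpo was still far above the floor in MDP. It was 3.65-fold lower in MDP in wild type and 4.17-fold in the knockout, the smallest of the 8 differences in wild type.

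The serine proteases differed more. Elane (1422928_at), the neutrophil elastase gene, read 9.57 and 9.03 in wild-type and knockout GMP against 4.24 and 3.50 in wild-type and knockout MDP. Elane was thus 40.1-fold lower in MDP in wild type and 46.2-fold in the knockout, and ranked 2nd from the lowest of all 11653 differences in each genotype. Its knockout MDP value lay 0.21 above the floor, so the fold there rests on a value near background.

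Prtn3 (1419669_at) encodes proteinase 3 and neighbours Elane in the genome. Its values were 7.95 and 7.35 in GMP and 4.96 and 4.97 in MDP, in the order wild type, knockout. The MDP arrays read the same to within 0.01 and both stayed above the floor, and the difference was 7.92-fold in wild type and 5.21-fold in the knockout. Ctsg (1419594_at) encodes cathepsin G, the third protease of this kind. It read 10.54 and 9.99 in GMP and 7.11 and 6.997 in MDP, a difference of 10.8-fold in wild type and 7.96-fold in the knockout. Ctsg, like Mpo, stayed far above the floor in MDP in both genotypes.

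Ms4a3 (1420572_at) encodes a 4-pass membrane protein of granulocyte and monocyte progenitors. In GMP it read 9.73 in wild type and 9.23 in the knockout, and in MDP 3.59 and 4.11. It was 70.5-fold lower in MDP in wild type, the lowest of all 11653 differences, and 34.7-fold lower in the knockout, where it ranked 3rd. Both MDP values lay within 1 log2 unit of the floor.

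Nkg7 and Cst7 are also known from cytotoxic lymphocytes. Nkg7 (1450753_at), whose product is a membrane protein of cytotoxic granules, read 8.71 and 7.73 in GMP and 4.10 and 3.49 in MDP (wild type first), which is 24.5-fold and 18.9-fold lower in MDP. Cst7 (1419202_at) encodes cystatin F, an inhibitor of cathepsins in the endolysosome, and read 6.89 and 6.03 in GMP and 3.89 and 4.19 in MDP. It was 8.0-fold lower in MDP in wild type and 3.58-fold in the knockout. Of 11 lymphocyte markers with a named probe set, 3 were at or above the floor in wild-type GMP, 2 in knockout GMP, 2 in wild-type MDP and 3 in knockout MDP, and their summed linear level was 99.0, 71.3, 78.0 and 83.3 in that order. Gzma, Ncr1, Cd8a, Cd2, Il2rb, Ctsw and Ccl5 were below the floor on every array, while Prf1 and Cd3e were above it on all 4. Gzmb, the granzyme B gene, was above it in wild-type GMP alone, at 4.99, and read 1.62 in knockout GMP. The part of these markers in the Nkg7 and Cst7 values was not tested.

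Hp (1448881_at) encodes haptoglobin, which binds free haemoglobin and is made by the liver and by developing granulocytes. It read 6.49 and 5.70 in GMP and 3.88 and 4.16 in MDP, in the order wild type, knockout. Both GMP arrays were higher, and the difference was 6.11-fold in wild type and 2.90-fold in the knockout. The 3 hepatocyte markers with a probe set had a summed linear level of 39.8 and 45.7 in GMP and 54.0 and 44.2 in MDP (wild type first). Their log2 values ran from 3.29 to 4.56 against the floor of 3.29, and their part in the Hp values was not tested.

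The 8 differences in wild type and those in the Trib1-/- arrays had a Pearson correlation of 0.94 over the 8 genes and 0.60 over all 11653, given as a description since genes of 1 pair of arrays share those arrays. Elane led in the knockout and Ms4a3 in wild type. Of the 16 MDP values, 10 lay within 1 log2 unit of the floor, namely both values of Elane, Ms4a3, Nkg7, Cst7 and Hp, and 0 of the 32 values of the 8 genes lay below it. With 32 added to the linear values, which damps low signals, all 8 stayed at least 2-fold lower in wild type. In the knockout Cst7 then stood at -0.95 and Hp at -0.75, and the other 6 stayed past 2-fold.

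**Figure D3:**
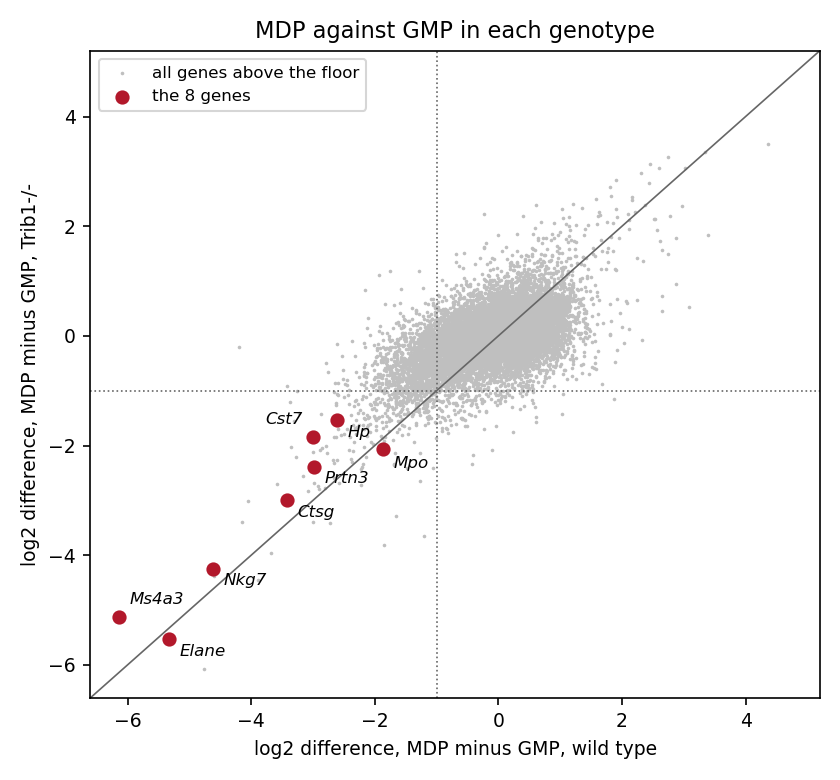
Log2 difference between MDP and GMP in wild type (x axis) and in Trib1-/- (y axis) for all 11653 genes above the floor (grey points) and the 8 genes (red, named); the solid line marks equal differences and the dotted lines a 2-fold lower value. The 8 genes lie in the lower left corner, from Hp and Mpo to Ms4a3 and Elane.

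Between genotypes the 8 genes moved less. In GMP, 7 of the 8 read below wild type on the knockout array, as did 55.2% of all genes. None of the 8 reached 2-fold, where 3.16% of all genes were at least 2-fold lower and 0.481% at least 2-fold higher. Their median difference was -0.57, against -0.06 over all genes. Nkg7 differed by -0.99, Cst7 by -0.86, Hp by -0.79 and Prtn3 by -0.60, so these 4 were at least 1.5-fold lower, as were 13.2% of all genes. Ctsg (-0.55), Elane (-0.54) and Ms4a3 (-0.50) lay closer to 0, and Mpo read 0.09. Of all genes, 96.7% had a higher difference than Nkg7 and 82.8% had a higher one than Ms4a3. The SD between probe sets of 1 gene for this comparison was 0.37, over 4922 genes with several. It cannot be had for these 8, and it says nothing of how animals, sorts or arrays vary.

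Several marker sums were also lower on the knockout GMP array than on the wild-type GMP array, but not all. In the order wild type, knockout, the markers of GMP itself summed to 451.6 and 386.6, and the lymphocyte markers to 98.95 and 71.32. Of the 4 GMP markers, 3 read lower in the knockout and Fcgr3 higher (0.16). Of the 4 lymphocyte markers above the floor on some array, 2 read lower. Gzmb (-3.37) was the only 1 of them 2-fold apart, while Prf1 (0.02) and Cd3e (0.22) read higher. The summed hepatocyte markers went the other way, at 39.83 and 45.67, but each of them lay within 1 log2 unit of the floor on both arrays. The summed basophil and mast cell markers went from 453.6 in wild type to 201.2, with 6 of the 7 above the floor on both arrays. Macrophage markers summed to 130.8 and 97.1 on the same arrays, with 5 of 8 above the floor on each, and C1qa, C1qb and Cd163 below it on both. Of the 7 above the floor on some array, 5 read lower in knockout GMP, furthest Slc40a1 (-0.94) and Vcam1 (-0.66). None of the 7 was 2-fold apart there. The 5 erythroid markers with a probe set were below the floor on every array. The part of any of these markers, those of basophils and mast cells among them, in the lower granule genes was not tested.

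In MDP the 8 genes had no common direction. The median difference was -0.05, against 0.01 over all genes. Of the 8, 4 lay below 0 and 4 above, where 48.5% of all genes lay below 0. Elane (-0.74) and Nkg7 (-0.62) were at least 1.5-fold lower in the knockout, as were 7.61% of all genes, and Ms4a3 (0.52), Cst7 (0.30) and Hp (0.28) read higher. Mpo (-0.11), Ctsg (-0.11) and Prtn3 (0.004) lay near 0. None of the 8 reached 2-fold, where 1.53% of all genes were at least 2-fold lower and 1.10% at least 2-fold higher. The 5 genes that read furthest from 0 are those whose MDP values lay within 1 log2 unit of the floor. With 32 added to the linear values Elane stood at -0.23 and Nkg7 at -0.19. The 8 macrophage markers had a summed linear level of 452.3 in wild-type MDP and 95.9 in knockout MDP, with 7 and 6 of the 8 above the floor and C1qa below it on both, and their part in these differences was not tested.

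**Figure D4:**
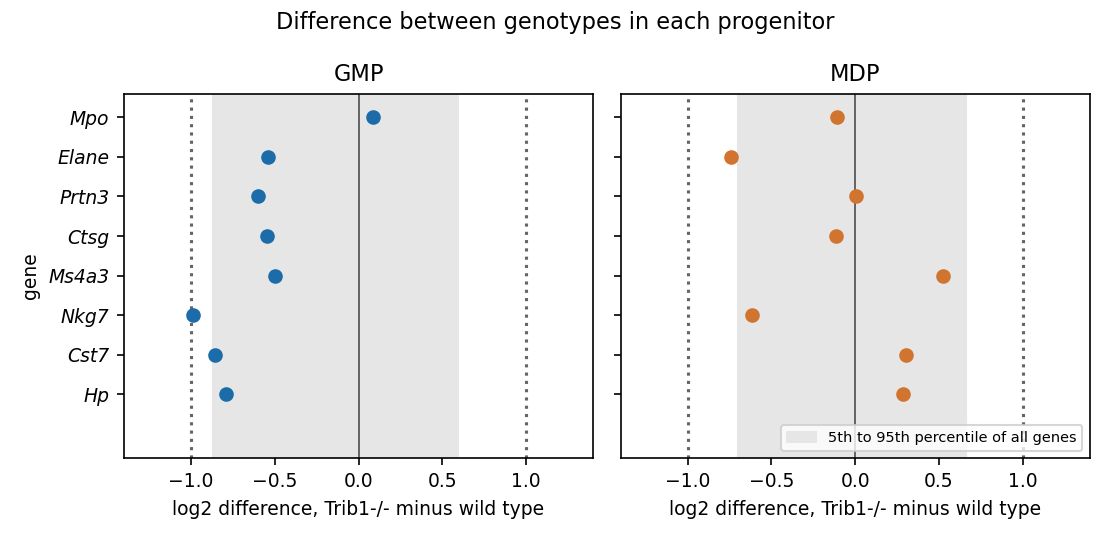
Log2 difference of Trib1-/- minus wild type (x axis) for each of the 8 genes (y axis) in GMP (left) and MDP (right), 1 array per group and so no error bars; grey bands span the 5th to 95th percentile of all 11653 genes and dotted lines mark 2-fold. In GMP all but Mpo lie below 0, and in MDP 4 lie on each side of 0. Of all genes, 55.2% lie below 0 in GMP and 48.5% in MDP.

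The genotype difference in MDP minus that in GMP was above 0 for 6 of the 8 genes, with a median of 0.52 against 0.09 over all genes. The share of all genes above 0 was not counted, and their median lay above 0 too. This difference was at least 1 for Cst7 (1.16), Hp (1.07) and Ms4a3 (1.02), as for 6.62% of all genes. For these 3 the gap between GMP and MDP was therefore narrower in the knockout, with lower GMP values and higher MDP values. For Mpo (-0.19) and Elane (-0.20) it was slightly wider. The value uses all 4 arrays, the wild-type GMP array among them, and no replicate gives it an error. Between probe sets of 1 gene its SD was 0.53 over 4922 genes, about the size of the median of the 8. The MDP values of Cst7, Hp and Ms4a3 lay within 1 log2 unit of the floor. With 32 added to the linear values, the genotype differences in GMP and MDP were -0.63 and 0.10 for Cst7 and -0.54 and 0.10 for Hp. For Ms4a3 they were -0.48 and 0.16, so none of these 3 genes then reached 1.

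Related genes were examined by role. Of 12 other primary granule contents, mostly acid hydrolases and lysozymes, 8 had a named probe set, and all 8 were above the floor on some array. In MDP 3 of the 8 were at least 2-fold lower in wild type and 2 of the 8 in the knockout, against 12.4% and 4.08% of all genes, with medians of -0.75 and -0.37. Gaa, the acid α-glucosidase gene (-1.49 and -1.22), and Man2b1, a lysosomal mannosidase gene (-1.12 and -1.20), passed in both, and the fucosidase gene Fuca1 in wild type (-1.19). Other probe sets of these genes differed: -0.68 and -0.14 for Gaa, -0.13 and -0.32 for Man2b1, and -0.68 to 0.21 for Fuca1 in wild type. With the probe sets of a gene averaged, 1 passed in wild type and 0 in the knockout. Lyz2, a lysozyme gene, read -0.20 and 0.19, so the hydrolases and lysozymes did not show the size of difference of the 8 genes.

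Of 10 genes for the processing, storage and inhibition of granule proteins, 9 were above the floor and 4 were at least 2-fold lower in MDP in each genotype, against 12.4% and 4.08% of all genes, with medians of -0.87 and -0.66 (wild type first). Serpinb1a, which encodes an inhibitor of neutrophil serine proteases, read 7.49 and 6.74 in GMP and 4.41 and 3.91 in MDP, a difference of -3.08 and -2.82. Srgn encodes serglycin, the proteoglycan that packs proteases in granules, and read 11.11 and 10.96 in GMP and 8.94 and 8.93 in MDP. Ctsc encodes the dipeptidyl peptidase that activates the granule proteases, and read 5.92, 5.98, 5.91 and 5.92 on the 4 arrays. Its difference was -0.02 in wild type and -0.06 in the knockout. Its 2 other probe sets read 0.13 and 0.19 in wild type and 0.73 and 0.77 in the knockout, so that these were higher in knockout MDP. The inhibitor of the granule proteases and their proteoglycan were thus lower in MDP, and no probe set of their activator was 2-fold apart in that comparison.

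The other members of that list that passed were chaperones of the endoplasmic reticulum and a secreted inhibitor. Pdia3 read -1.46 and -1.18 (with a further probe set at 0.11 and -0.10), Calr, which folds myeloperoxidase, -1.10 in wild type and -0.66 in the knockout, and Slpi, an elastase inhibitor, -0.87 and -1.50. Slpi was also the single member at least 2-fold apart between the MDP genotypes (-1.24), and with 32 added to the linear values that count was 0. Of all genes, 1.53% were at least 2-fold lower in that comparison and 1.10% at least 2-fold higher. Of 6 haem synthesis genes above the floor, Alas1, the first enzyme of the pathway, read 6.51 and 5.66 in GMP and 3.85 and 3.34 in MDP. Alas1 was 6.33-fold lower in MDP in wild type and 5.0-fold in the knockout, and its other probe set agreed in direction (-4.04 and -2.51). It was the only 1 of the 6 past 2-fold in wild type, against 12.4% of all genes. In the knockout 2 of the 6 passed, against 4.08%, and 0 with 32 added to the linear values. Fech, the last enzyme, was at -1.07 in the knockout with other probe sets from -1.41 to 0.25.

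Of 10 regulators of granule genes above the floor, 2 were at least 2-fold lower and 3 higher in MDP in wild type, against 12.4% and 4.16% of all genes, and 1 lower and 1 higher in the knockout, against 4.08% and 2.75%. Gfi1, a repressor that promotes the granulocyte fate, read 6.73 and 6.08 in GMP and 2.14 and 1.70 in MDP, below the floor. Cebpa read 8.54 and 7.90 in GMP and 6.89 and 6.91 in MDP, a difference of -1.64 in wild type and -0.99 in the knockout. Irf8, a regulator of the monocyte and dendritic lineage, ran the other way, at 5.51 and 4.81 in GMP and 7.81 and 7.77 in MDP. Klf4 (1.02) and Trib1 (1.04) also passed in wild type, where the second probe set of Klf4 read 1.62 but that of Trib1 0.28. With 32 added to the linear values neither passed, and the regulators higher in wild-type MDP went from 3 to 1. Myb was at -0.87 and -0.72 (other probe sets from -1.51 to -1.20) and Spi1, which encodes PU.1, at -0.40 and -0.46. In GMP the genotype difference was -0.66 for Gfi1, -0.64 for Cebpa, -0.70 for Irf8, -0.37 for Spi1 and 0.14 for Myb. There 0 of the 10 reached 2-fold, where 3.16% of all genes were at least 2-fold lower and 0.481% at least 2-fold higher.

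Late neutrophil genes, which encode proteins of later granules and of mature cells, were mostly near or below the floor: of 14 with a probe set, 8 reached it on some array. In each genotype 3 of the 8 were at least 2-fold lower in MDP, against 12.4% and 4.08% of all genes. With 32 added to the linear values 1 of the 8 passed in each. Gstm1, a glutathione transferase gene, read 8.22 and 7.69 in GMP and 5.32 and 4.90 in MDP. Its 3 other probe sets ranged from -3.38 to -0.32 in wild type and from -2.65 to 0.50 in the knockout. S100a9, a calprotectin subunit gene, read 5.33 and 5.23 against 4.02 and 4.08. S100a8, its partner, read 4.51 and 3.53 against 2.51 and 2.03. Ltf, the lactoferrin gene of secondary granules, lay between 3.55 and 3.72 on all 4 arrays, and Lcn2, Mmp8, Mmp9, Cd177, Ifitm6 and Chil1 were below the floor on every array. The gap between GMP and MDP was therefore measured for the early genes, and for most of the late ones there was little signal in either.

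**Figure D5:**
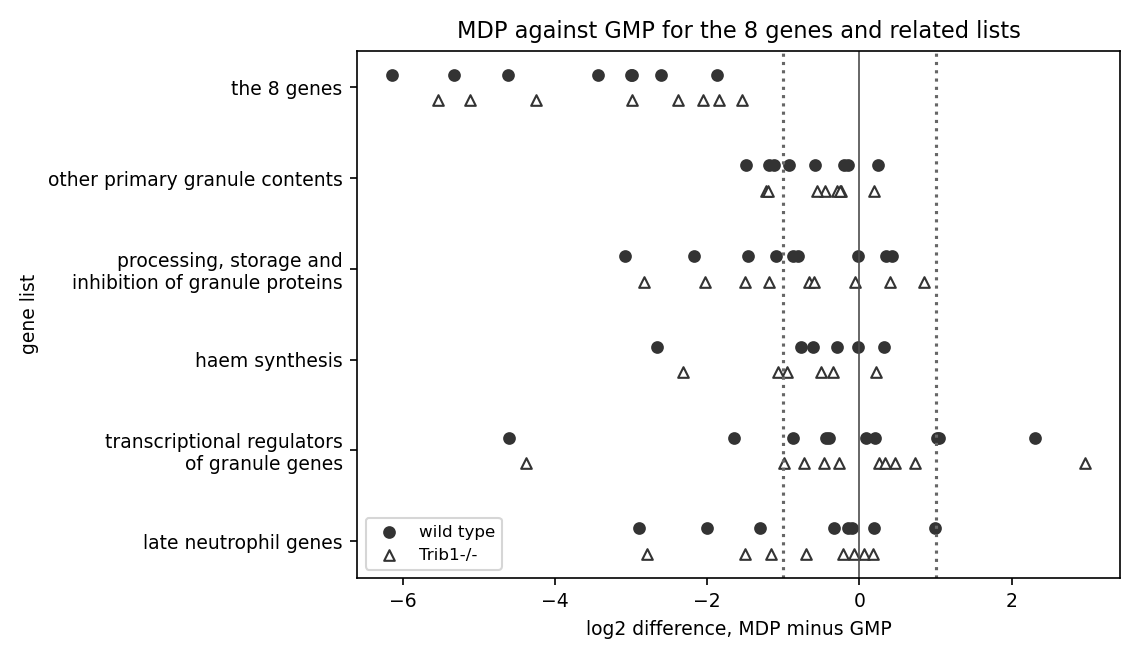
Log2 difference between MDP and GMP (x axis) for each gene above the floor in the 8 genes and 5 related lists (y axis), with filled circles for wild type and open triangles for Trib1-/-; each symbol is 1 gene from a single pair of arrays and dotted lines mark 2-fold. The 8 genes lie wholly to the left of the 2-fold line, while each of the other lists has most of its members between the lines or to their right.

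The genes nearest in pattern to the 8 were found by the distance between the 4 values of a gene, centred on their mean, and the median centred profile of the 8. The 5 nearest named genes were Kit, the stem cell factor receptor gene (distance 0.29), Gstm1 (0.29), Serpinb1a (0.35), Ak4, a mitochondrial adenylate kinase gene (0.39), and Trem3, a myeloid receptor gene (0.47). Among the 8 themselves Ctsg (0.26) and Prtn3 (0.27) lay closest and Elane (2.53) and Ms4a3 (2.71) furthest, because their differences were larger. A profile of 4 values, 1 an array, carries little to tell genes apart. The second probe set of Kit read -1.0 and -0.92, against -3.58 and -2.69, and those of Gstm1 also disagreed, as given above.

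The genes next to the 8 in the genome were also read, taking 3 protein-coding genes on each side from the reference gene table. Of 42 such neighbours, 19 were above the floor, and in wild type MDP lay at least 2-fold below GMP for 7 of the 19 (36.8%, against 12.4% of all genes) and in the knockout for 3, against 4.08%. The 3 that passed in both were Epx, the eosinophil peroxidase gene near Mpo (-3.31 and -1.56), Ms4a2, the IgE receptor β chain gene beside Ms4a3 (-2.78 and -2.01, with a further probe set at -0.28 and 0.96), and Etfb near Nkg7 (-1.74 and -1.54). Mcpt8, a basophil protease gene next to Ctsg, was at -1.95 in wild type and -0.69 in the knockout. Epx, Ms4a2 and Mcpt8 are relatives of the gene they lie near and are markers of eosinophils or basophils. Around Cst7 and Hp none of the 6 neighbours above the floor was 2-fold lower in either genotype, and Acss1 near Cst7 was higher in the knockout (1.30).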

How the data were processed

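Each sorted population gave total RNA, which was amplified and biotin-labelled for 1 array, per the labels' protocols. The deposited values are RMA values by the authors, per the submitters' processing notes, and are taken as log2 from their range (0.14 to 14.5). No RMA version or array batch is stated there. RMA gives every array a like distribution, and a change in total RNA per cell cannot be seen in such values. Of 45101 probe sets, 64 were controls, 34945 had 1 gene symbol, 932 several and 9160 were unnamed here.

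The probe set of highest mean stood for its gene, which was used where its highest value reached the floor. Differences between arrays were counted at 2-fold, with no test, since each group had 1 array, and the number of arrays limits the precision. Named genes were the 8 genes, members of 5 related lists at least 2-fold apart (up to 4 a list and difference), Gfi1, Cebpa, Myb, Spi1 and Irf8, genomic neighbours, and the 5 genes nearest in profile; Ctsc, Lyz2, Ltf, the late genes below the floor and the marker genes were named after their values were seen. The 8 genes and the lists were chosen with earlier results of these data known; the marker lists were those of GMP, MDP, cytotoxic lymphocytes, basophils and mast cells, macrophages, erythroid cells and hepatocytes. Genes of the lists without a named probe set were not analysed here. The alternatives were other floors, averaging probe sets, leaving out probe sets with suffixes for shared targets, cyclic loess (limma 3.58.1, 3 iterations), centring, 32 added to the linear value, and sizes of 1.5-fold and 4-fold. Calculations used Python 3.11.15 and were tested on simulated data.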

Additional observations from a re-analysis of the deposited data

Results flagged for a closer look

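For 5 of the 8 genes the genotype difference had opposite signs in GMP and MDP, with 1 array behind each value, and the difference between the progenitors was not tested. The share of all genes with opposite signs was not counted. The difference in MDP minus that in GMP was 1.16 for Cst7, 1.07 for Hp, 1.02 for Ms4a3, 0.60 for Prtn3 and -0.19 for Mpo. For Prtn3 the MDP difference was 0.004, and for Mpo both differences were 0.11 or less in size (0.09 in GMP and -0.11 in MDP), so there the sign carries little.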

How the results depend on the processing

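Under the alternatives that kept the 2-fold rule, the counts of the 8 genes at least 2-fold apart changed for the knockout comparison of MDP with GMP only, from 8 to 6 with 32 added to the linear values. The median difference of the 8 with 32 added was -2.65 in wild type, in place of -3.21, and -2.26 in the knockout, in place of -2.69. At a 1.5-fold size 4 of the 8 were lower in knockout GMP and 2 in knockout MDP, in place of 0 and 0. Of all genes, 13.2% and 7.61% were at least 1.5-fold lower there. Of the single differences of the 8 genes, 242 moved by less than the SD between probe sets of a gene, and the 14 that moved more did so with 32 added. Many of the 242 were fixed in advance. Other floors, averaging probe sets and leaving out suffixes could not move the 8 genes. Each had 1 probe set without such a suffix, reached every floor used and had 0 values below the main floor. Only cyclic loess, centring and 32 added could move these differences. No called difference of the 8 changed sign. Counts over the related lists stayed within 1.5 times in 140 cases and moved further in 20: the other primary granule contents fell to 0 in both genotypes without probe sets that may share targets, or with 32 added, and haem synthesis in the knockout fell from 2 to 0 with 32 added. Leaving out an array was not possible, since each group had 1. No paired analysis was possible because each group had 1 array and the labels carry no replicate number. Signals within 1 log2 unit of the floor limit the MDP values of Elane, Ms4a3, Nkg7, Cst7 and Hp.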
